A study of Mus musculus with 6 samples.

Results

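The 41 genes described here encode the contractile lattice of skeletal muscle and the machinery that links its electrical excitation to calcium release. They were chosen by name from a deposited table of 56496 genes, with 10 sarcomere genes of fast fibres, 7 of slow fibres, 10 shared or Z-disc genes, 8 calcium-handling genes and 6 other genes of the muscle fibre. All 41 were found. The tissue is mouse bone marrow, profiled by RNA-seq in 3 libraries of treated animals, Onway 1, 2 and 3, and in 3 libraries of animals left untreated, Control 4, 5 and 6. Per the labels, both groups were female BALB/c mice, called WT, after surgery that removed a 4T1 tumour (4T1 is a mammary cancer line of the mouse). Onway, of unstated content, was given by gavage for 2 weeks. Every Onway library is labelled day 14 and every Control library day 0, so the effect of the treatment and that of the day cannot be told apart. The labels say that marrow cells were harvested after treatment, but their extraction protocol also lists an adipogenic culture medium, and whether the cells were cultured is not settled by them. No label ties a library to an animal of its own, and p-values therefore reflect only the spread among these libraries, which may be technical.

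In a striated muscle fibre, myosin heavy chains with their essential and regulatory light chains pull on thin filaments of actin and tropomyosin, and the filaments are anchored at the Z-disc. Calcium released from the sarcoplasmic reticulum binds troponin C, which shifts the troponin complex and tropomyosin and opens actin to myosin. An action potential reaches the release channel through the voltage sensor of the transverse tubule, and a calcium pump then refills the reticulum. Fast and slow fibres build the same apparatus from different isoforms, so the isoforms of myosin, the light chains and troponin largely tell which fibre type a transcript belongs to. Calsequestrin is a weaker guide, since Casq1 is not restricted to fast fibres. Cells of bone marrow are not known to build sarcomeres.

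Promoters of 31 of the 41 genes were found in RefSeq on GRCm38.p6, in 39 windows of the 250 bases before a gene start. Both strands were searched for the letters of motifs known from muscle genes: the E-box CANNTG, bound by myogenic factors; the CArG box, bound by serum response factor; the MEF2 motif; the MCAT element CATTCC, bound by TEAD factors; and TATAAA. The E-box was in 82.1% of the members' windows and in 66.2% of all 32851 RefSeq windows of that length. The CArG box was in 12.8% of the members' windows and in 1.47% of all windows. The MEF2 motif was in 17.9% of the members' windows and in 2.92% of all windows. The MCAT element was in 23.1% of the members' windows and in 12.6% of all windows. TATAAA was in 15.4% of the members' windows and in 12.4% of all windows. The CArG box was matched in Acta1, Ldb3, Myh4 and Myl3, and MEF2 in Casq2, Klhl41, Myh1, Myh4, Pvalb, Ttn and Xirp2. A match describes letters and is neither a shown binding site nor a cause. The windows of 4 members with values described in the results are printed below. They were picked because each holds a CArG box or a MEF2 match, so they are not typical of the members' windows. Among such windows, they cover a shared thin-filament gene, a fast and a slow myosin gene and a calcium buffer. Acta1 is at chr8:123894776-123895025 (minus strand), Myh4 at chr11:67237562-67237811 (plus strand), Pvalb at chr15:78206401-78206650 (minus strand) and Myl3 at chr9:110763428-110763677 (plus strand). Each is written 5′ to 3′ on the gene's strand, and capitals mark the motif matches. In Myh4, a TATAAA match on the other strand lies within the MEF2 match.
Acta1: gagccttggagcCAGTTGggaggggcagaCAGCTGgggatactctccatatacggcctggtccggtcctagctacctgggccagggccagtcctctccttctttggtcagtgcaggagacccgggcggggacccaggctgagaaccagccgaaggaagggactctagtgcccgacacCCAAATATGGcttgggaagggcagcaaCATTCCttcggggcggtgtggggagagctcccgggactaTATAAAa
Myh4: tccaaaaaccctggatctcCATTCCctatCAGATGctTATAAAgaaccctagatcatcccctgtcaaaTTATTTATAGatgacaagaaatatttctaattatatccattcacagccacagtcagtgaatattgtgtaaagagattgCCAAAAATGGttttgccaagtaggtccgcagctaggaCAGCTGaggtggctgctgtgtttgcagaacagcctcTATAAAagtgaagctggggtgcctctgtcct
Pvalb: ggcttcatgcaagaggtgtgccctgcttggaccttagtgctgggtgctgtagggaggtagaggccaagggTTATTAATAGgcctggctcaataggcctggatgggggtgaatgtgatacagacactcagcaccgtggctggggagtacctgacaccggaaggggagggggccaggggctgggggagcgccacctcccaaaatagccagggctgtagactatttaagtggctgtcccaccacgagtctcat
Myl3: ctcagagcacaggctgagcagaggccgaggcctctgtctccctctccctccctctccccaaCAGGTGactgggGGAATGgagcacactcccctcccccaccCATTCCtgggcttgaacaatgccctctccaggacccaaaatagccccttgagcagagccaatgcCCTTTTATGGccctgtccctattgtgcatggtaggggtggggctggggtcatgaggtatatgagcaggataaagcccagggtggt

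Every value below is in TPM as the authors deposited it, summed over the transcripts of a gene. TPM is scaled per transcript length and to a fixed total within each library, so levels can be set side by side between genes, but the read depth is not kept and is unknown. The number of genes at 1 TPM or more was 13354 to 14252 per library. Values per library are given in the order Onway 1, Onway 2, Onway 3 and Control 4, Control 5, Control 6. Haemoglobin genes took 13.3%, 9.38% and 33.9% of the TPM in Onway, against 26.6%, 11.6% and 18.3% in Control. They were led by Hba-a2, with 50648, 41032 and 120524 TPM in Onway, against 93324, 40271 and 74608 TPM in Control. Hbb-bs came next, with 37213, 25465 and 99954 TPM in Onway, against 76489, 35068 and 53795 TPM in Control.

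Transcripts of the muscle fibre were plain in each of the 3 Control libraries and low in each of the 3 Onway libraries. A further library in the authors' Control mean, described below, was low as well. The 41 members summed to 38.1, 40.8 and 28.2 TPM in Onway, against 2284, 849.7 and 5086 TPM in Control. The means were 35.7 ± 6.63 TPM in Onway and 2740.0 ± 2155 TPM in Control (SD, n = 3 each), a 76.7-fold lower mean in Onway, or 43.9-fold without Control 6. The Control libraries differed among themselves, and Control 6 held 5.99 times the sum of Control 5. The highest Onway library still lay below the lowest Control library for each of the 41 genes. Lower values without overlap between the groups were found in 10.9% of the 28727 genes listed above 0 in any library. In Onway, 30 members stayed under 1 TPM in every library, and Myh2, Myh7, Myot and Sln were listed at 0 in all 3 libraries. In Control, 7 members averaged over 100 TPM, of which 5 are fast-fibre genes and the others are Acta1 and Pvalb. Fewer cells of a type and less RNA per cell cannot be told apart in such bulk samples.

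**Figure D1:**
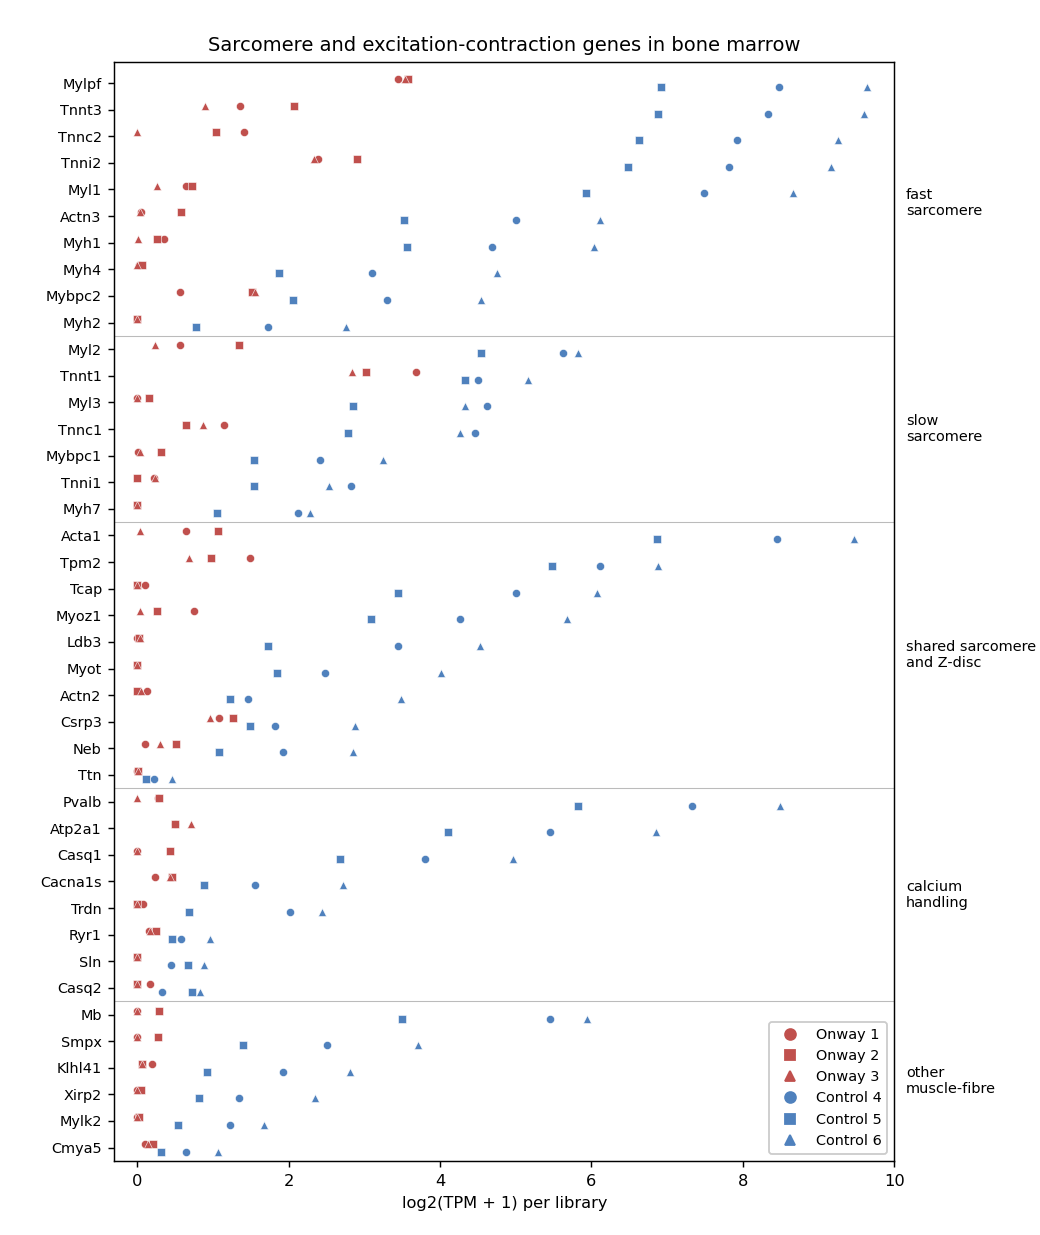
Level of each of the 41 genes in each library on a log2(TPM + 1) scale, by role, with Onway libraries in red and Control libraries in blue and the library given by the marker. All red points of a gene lie left of its blue points, and within Control the squares of Control 5 are lowest and the triangles of Control 6 highest for most genes.

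The authors' deposited table also gives a mean per group, which over the 41 members came to 40.2 TPM for Onway and 2068 TPM for Control. Every deposited mean fits a mean of 4 values with 2 decimals, while 75916 Onway means and 77558 Control means differ from the mean of the 3 libraries. A further library therefore entered each of the authors' means, and it was not analysed here. What 4 times the deposited mean leaves beyond the 3 libraries came to 53.7 TPM for Onway and 53.3 TPM for Control over the 41 members. The remainder of the Control mean was below the lowest of the 3 Control libraries for all 41 members, and was under 1 TPM for 36 of them. Its sum was close to the Onway remainder and far below the 849.7 TPM of Control 5. For Acta1 it was 0.03 TPM, below the highest Onway library at 1.1 TPM. For Mylpf it was 17.4 TPM, above the highest Onway library at 10.9 TPM. The absence of overlap for all 41 genes therefore holds for the 6 libraries analysed only. The fast members left 19.9 TPM in Onway and 21.8 TPM in Control, and the slow members left 13.6 TPM in Onway and 17.6 TPM in Control. For the list of osteoblast genes, described with the other cell types, it left 17.8 TPM in Onway and 13.6 TPM in Control, and for the list of megakaryocyte genes 1142 TPM in Onway and 955 TPM in Control. These remainders entered no test. Over all genes each came to 1e+06 TPM, the total of a library.

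Tests were made across the whole table with limma on log2(TPM + 1), for the 14192 genes that averaged 1 TPM or more across all 6 libraries. This scale understates the change of low genes. Of the 41 members 35 were tested, and 23 of them were lower in Onway at an adjusted p under 0.05, against 2.99% of all tested genes. No member was higher, at an adjusted or an unadjusted p under 0.05, against 0.233% of all tested genes at the adjusted threshold. All 35 tested members had an unadjusted p under 0.05, as had 1897 of all tested genes. The tested members' log2 fold changes ran from -7.68 to -0.95 with a median of -3.21, beside a median of 0.03 over all tested genes. Most of the members could pass the filter only through the Control libraries, so these counts and this median describe the tested members and support nothing further. Casq2, Ryr1, Sln, Mylk2, Cmya5 and Ttn were below the filter and were not tested.

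**Figure D2:**
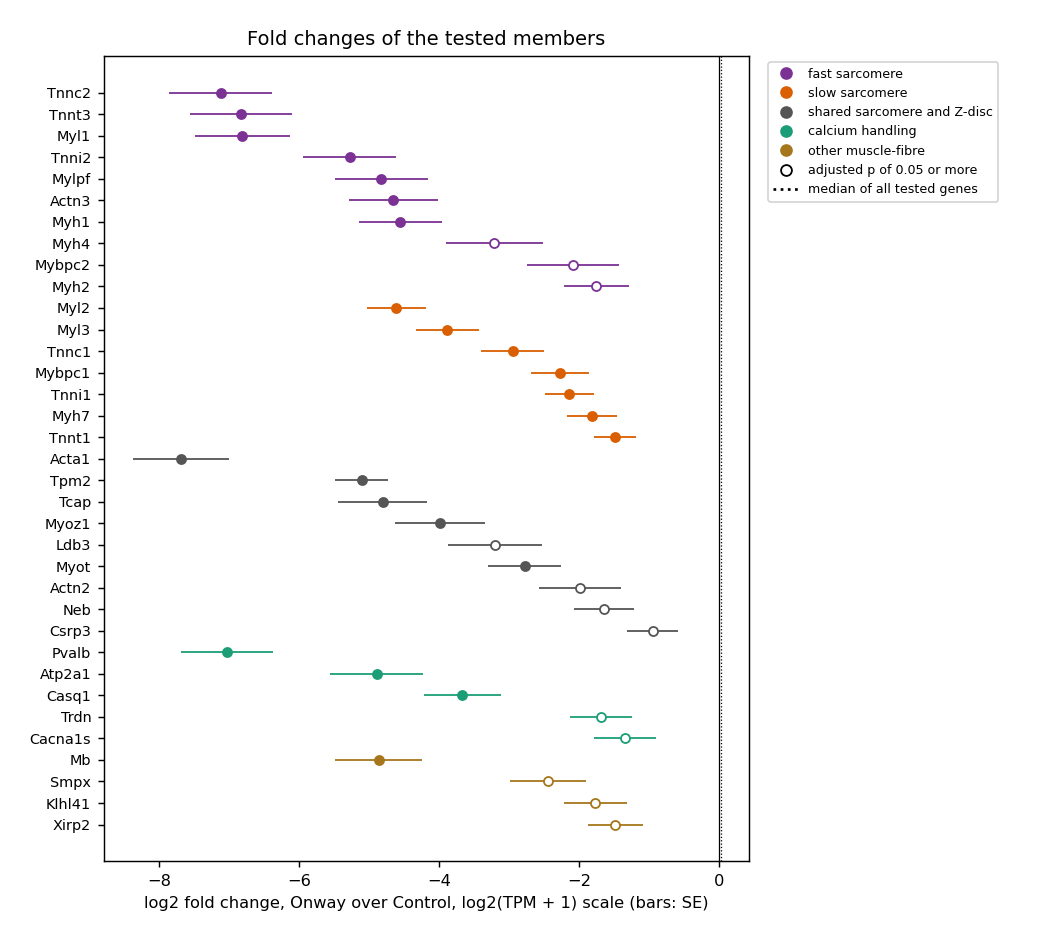
Log2 fold change, Onway over Control, of the 35 tested members with its standard error, coloured by role. Filled points passed an adjusted p of 0.05, open points did not, and the dotted line is the median of all tested genes at 0.03. All points lie left of 0, from -7.68 for Acta1 to -0.95 for Csrp3.

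The fast-fibre sarcomere genes held most of the muscle signal. Their 10 members summed to 18.7, 24.9 and 17.7 TPM in Onway, against 1391, 510.3 and 3340.2 TPM in Control, an 85.6-fold lower mean in Onway, or 46.6-fold without Control 6. All 10 were tested, and 7 fell: Myl1, Tnnc2, Tnnt3, Myh1, Tnni2, Actn3 and Mylpf.

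Tnnt3, the fast troponin T that fixes the troponin complex to tropomyosin, had 1.56, 3.19 and 0.86 TPM in Onway, against 320.5, 116 and 773 TPM in Control (log2 fold change -6.83 ± 0.73 (SE), limma adjusted p = 0.0077). The gene lies at chr7:142498836-142516009 in GENCODE M21, an annotation of GRCm38. Tnni2, the fast inhibitory troponin, is encoded a short distance upstream at chr7:142441808-142444410 and had 4.23, 6.48 and 4.04 TPM in Onway, against 224, 88.6 and 570.4 TPM in Control (log2 fold change -5.28 ± 0.67 (SE), limma adjusted p = 0.0133). Tnnc2, the fast calcium-binding troponin C, had 1.66, 1.05 and 0 TPM in Onway, against 241, 98.0 and 610 TPM in Control (log2 fold change -7.12 ± 0.74 (SE), limma adjusted p = 0.0068). All 3 subunits of the fast troponin complex therefore had at least 88.6 TPM in every Control library and at most 6.48 TPM in any Onway library. In each, Control 6 was highest and Control 5 lowest.

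Mylpf, the regulatory light chain of fast myosin at chr7:127208890-127214298, was the most abundant member in Control. It had 9.87, 10.9 and 10.6 TPM in Onway, against 354, 120.0 and 796 TPM in Control (log2 fold change -4.83 ± 0.66 (SE), limma adjusted p = 0.0185). The Onway values were nearly the same in the 3 libraries and above those of every other fast member, and its fold change was smaller than that of the essential light chain. Myl1, that essential light chain, had 0.56, 0.65 and 0.2 TPM in Onway, against 177, 59.6 and 404 TPM in Control (log2 fold change -6.81 ± 0.68 (SE), limma adjusted p = 0.00544). Actn3, the actin-crosslinking alpha-actinin of fast fibres, had 0.04, 0.49 and 0.03 TPM in Onway, against 31.0, 10.5 and 67.9 TPM in Control (log2 fold change -4.65 ± 0.64 (SE), limma adjusted p = 0.0163).

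The fast myosin heavy chains lie side by side on chromosome 11, with Myh2 at chr11:67171027-67197517, Myh1 at chr11:67200052-67224575 and Myh4 at chr11:67238029-67260446. Myh1, the 2X heavy chain, had 0.28, 0.2 and 0.01 TPM in Onway, against 24.8, 10.9 and 64.8 TPM in Control (log2 fold change -4.55 ± 0.59 (SE), limma adjusted p = 0.0119). Myh4, the 2B heavy chain, had 0.02, 0.05 and 0 TPM in Onway, against 7.62, 2.67 and 26.0 TPM in Control, and did not pass the test (log2 fold change -3.21 ± 0.69 (SE), limma adjusted p = 0.0824). Myh2, the 2A heavy chain, was listed at 0 in all 3 Onway libraries, against 2.32, 0.72 and 5.74 TPM in Control, and did not pass the test (limma adjusted p = 0.125). The copies are close in sequence, and no source used here says how reads were split among them, so the split between Myh1, Myh2 and Myh4 is uncertain. Most of the TPM of Myh1 was on 1 newly assembled transcript, with 0.27, 0.2 and 0 TPM in Onway, against 21.2, 8.81 and 55.5 TPM in Control. Mybpc2, the fast myosin-binding protein C that sits on the thick filament, had 0.48, 1.87 and 1.95 TPM in Onway, against 8.87, 3.18 and 22.4 TPM in Control, and also did not pass the test (log2 fold change -2.09 ± 0.65 (SE), limma adjusted p = 0.235).

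Myl1 and Tnnc2 passed the threshold in each of the 6 fits that left out 1 library. Tnnt3 did not without Onway 1 (limma adjusted p = 0.0556), and Tnni2 did not without Onway 1, Onway 3 or Control 4 (0.0646 to 0.0777). Myh1, Actn3 and Mylpf did not without Onway 1, Onway 2, Onway 3 or Control 4 (0.0516 to 0.0924). With Ensembl transcripts only, Myh1 did not pass (0.103).

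The slow-fibre sarcomere genes were lower in level than the fast ones in Control, and all 7 of their members fell in Onway, although the calls of Tnnt1, Mybpc1 and Myh7 were lost under other settings. They summed to 13.7, 9.59 and 7.34 TPM in Onway, against 129, 58.2 and 145 TPM in Control, a 10.8-fold lower mean in Onway.

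Myl2, the regulatory light chain of slow and ventricular myosin at chr5:122100951-122113472, had 0.48, 1.54 and 0.18 TPM in Onway, against 48.4, 22.2 and 55.5 TPM in Control (log2 fold change -4.61 ± 0.42 (SE), limma adjusted p = 0.0019). Myl3, the slow essential light chain, had 0, 0.11 and 0 TPM in Onway, against 23.7, 6.19 and 19.1 TPM in Control (log2 fold change -3.88 ± 0.45 (SE), limma adjusted p = 0.00484). Tnnc1, the troponin C shared by slow and cardiac fibres, had 1.21, 0.56 and 0.83 TPM in Onway, against 21.1, 5.86 and 18.2 TPM in Control (log2 fold change -2.95 ± 0.45 (SE), limma adjusted p = 0.0167). In Myl3 and Tnnc1, Control 4 was above Control 6, the reverse of the order in each of the 10 fast members. Tnni1, the slow inhibitory troponin, had 0.17, 0 and 0.18 TPM in Onway, against 6.11, 1.91 and 4.79 TPM in Control (log2 fold change -2.15 ± 0.35 (SE), limma adjusted p = 0.0171), with Control 4 highest again.

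Tnnt1, the slow troponin T at chr7:4504570-4516382, was the slow member with the most TPM left in Onway. It had 11.8, 7.13 and 6.12 TPM in Onway, against 21.7, 19.0 and 34.8 TPM in Control (log2 fold change -1.49 ± 0.30 (SE), limma adjusted p = 0.043). It made up 86.3%, 74.3% and 83.4% of the slow sum in Onway, against 16.8%, 32.7% and 24.1% in Control. Without it the slow list was nearly empty in Onway, since the other 6 slow members summed to 1.87, 2.46 and 1.22 TPM in Onway, against 107, 39.1 and 109.95 TPM in Control. The slow heavy chain and the slow myosin-binding protein C were under 1 TPM in every Onway library. Mybpc1, the slow myosin-binding protein C, had 0.01, 0.25 and 0.03 TPM in Onway, against 4.33, 1.92 and 8.5 TPM in Control (log2 fold change -2.28 ± 0.41 (SE), limma adjusted p = 0.0273). Myh7, the slow myosin heavy chain at chr14:54970684-54994626, was listed at 0 in all 3 Onway libraries, against 3.37, 1.07 and 3.86 TPM in Control (log2 fold change -1.82 ± 0.35 (SE), limma adjusted p = 0.0362). Its 3 Control libraries were all above 1 TPM, but most of that was on a retained-intron transcript, with 2.51, 0.9 and 2.88 TPM. Its coding transcripts had 0.86, 0.17 and 0.98 TPM in Control, so the coding slow heavy chain was low but listed in each library.

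Myl2 and Myl3 passed the threshold in each of the 6 fits that left out 1 library. Mybpc1 did not without Onway 1, Onway 2, Onway 3 or Control 4, and Tnnc1 did not without Onway 1, Onway 2, Onway 3 or Control 6 (limma adjusted p from 0.0517 to 0.111 over both). Tnni1 did not without Onway 2, Onway 3 or Control 6 (0.0578 to 0.0931), and Tnnt1 did not without Onway 2, Onway 3, Control 4 or Control 6 (0.0832 to 0.176). The call of Tnnt1 also ended under 5 settings of the processing: no filter, a filter at 0.1 TPM, TMM scaling, Ensembl transcripts only, and limma without trend and robust moderation (0.0526 to 0.0943). With no filter, Mybpc1 and Myh7 did not pass either (0.0624 for Mybpc1 and 0.0612 for Myh7). Myh7 did not without any 1 of the Onway libraries (0.0812 to 0.137), and fell under the filter without Control 4 or Control 6.

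The mix of fast and slow isoforms differed among the Control libraries. The fast members were 2.19 to 3.42 times as high in Control 6 as in Control 4, with a median of 2.50, while the slow members were 0.784 to 1.96 times as high, with a median of 1.15. Against Control 5, the medians in Control 6 were 6.64 for fast members and 3.09 for slow members. The fast share within a pair of isoforms, which compares transcripts of 1 library, was highest in Control 6 in 7 of the 8 pairs. In Control 4, Control 5 and Control 6, Myl1 made up 88.2, 90.6 and 95.5% of Myl1 and Myl3, and Tnnc2 made up 92.0, 94.4 and 97.1% of Tnnc2 and Tnnc1. The thin-filament and light-chain pairs were thus mostly fast in all 3 libraries. Tnni2 made up 97.3, 97.9 and 99.2% of the pair with Tnni1, Mylpf 88.0, 84.4 and 93.5% of the pair with Myl2, and Tnnt3 93.7, 85.9 and 95.7% of the pair with Tnnt1. Of the heavy chains Myh4 and Myh7, Myh4 made up 69.3, 71.4 and 87.1%, and 89.9, 94.01 and 96.4% with protein-coding transcripts only. Myh1, the fast heavy chain with the most TPM, is not in that pair, and the split among the fast heavy chains is uncertain. Mybpc2 gave 67.2, 62.4 and 72.5% of the pair with Mybpc1. In calsequestrin, the calcium store of the reticulum, Casq1 made up 98.0, 89.1 and 97.5% of the pair with Casq2, and Control 4 was highest there. With 1 library behind each value, these differences have no replicate check.

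In Onway the same shares rested on low levels, since 5 of the 8 pairs summed to less than 3 TPM in at least 1 Onway library. Over the fast and slow lists the fast share was 57.8%, 72.2% and 70.7% in Onway, against 91.5%, 89.8% and 95.8% in Control. The Onway shares came from 32.4, 34.5 and 25.0 TPM. Counting annotated protein-coding transcripts only, an alternative added after seeing the data, gave a mean share of 80.9% ± 4.37 in Onway, against 93.5% ± 2.72 in Control (SD, n = 3 each). With all transcripts the means were 66.9% ± 7.91 in Onway and 92.4% ± 3.13 in Control. The ranges of the groups did not overlap under either count, but the slow sum in Onway was mostly 1 gene. With all transcripts, Tnnt1 made up 86.3%, 74.3% and 83.4% of it, against 16.8%, 32.7% and 24.1% in Control. Among pairs with at least 3 TPM in every library, the mean share of Tnnt3 over Tnnt1 was 18.3% in Onway and 91.8% in Control. That of Mylpf over Myl2 was higher in Onway, at 93.8% against 88.6%, and that of Tnni2 over Tnni1 was 97.3% against 98.1%. A shift across the isoforms is therefore not shown.

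**Figure D3:**
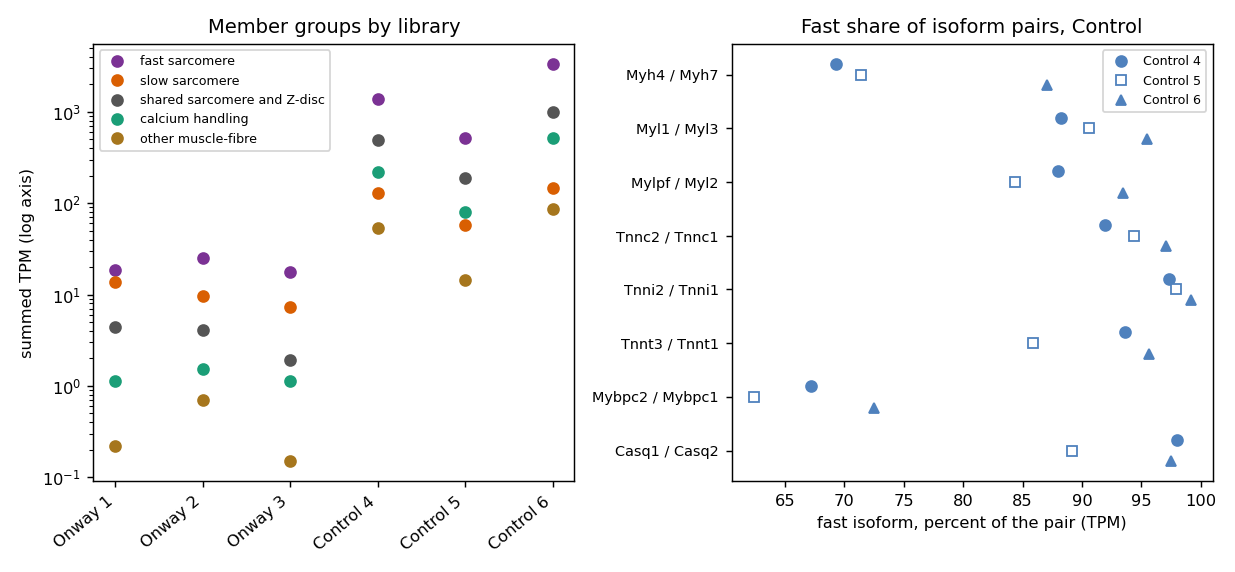
Left, summed TPM of each of the 5 role groups in each library on a log axis. Right, the fast isoform's percent of the TPM of each of the 8 pairs in the Control libraries, which was highest in Control 6 except for Casq1 and Casq2.

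The genes shared by both fibre types and those of the Z-disc summed to 4.42, 4.13 and 1.93 TPM in Onway, against 489, 186 and 999.5 TPM in Control. Of their 10 members 9 were tested, and 5 fell: Tpm2, Acta1, Tcap, Myoz1 and Myot. Acta1, the skeletal alpha-actin that forms the thin filament, lies at chr8:123891769-123894751 and had 0.56, 1.1 and 0.03 TPM in Onway, against 350.0, 116 and 706 TPM in Control (log2 fold change -7.68 ± 0.68 (SE), limma adjusted p = 0.00364). On the log2(TPM + 1) scale this was the steepest change of the 35 tested members. Tpm2, the beta-tropomyosin that covers the myosin-binding face of actin, lies at chr4:43514711-43523765 and had 1.82, 0.96 and 0.61 TPM in Onway, against 68.2, 43.7 and 117 TPM in Control (log2 fold change -5.11 ± 0.38 (SE), limma adjusted p = 8.85e-04). Its Control libraries were closer together than those of Acta1, and its adjusted p was the lowest of the 23 called members. The remainders of the deposited means for Tpm2, outside this test, were 15.9 TPM in Onway and 11.4 TPM in Control, both between the groups.

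At the Z-disc, Tcap, which caps the ends of titin, had 0.07, 0 and 0 TPM in Onway, against 31.0, 9.88 and 66.2 TPM in Control (log2 fold change -4.81 ± 0.63 (SE), limma adjusted p = 0.0135). Myoz1, a calsarcin that binds calcineurin and alpha-actinin, had 0.69, 0.2 and 0.03 TPM in Onway, against 18.1, 7.53 and 50.1 TPM in Control (log2 fold change -3.99 ± 0.64 (SE), limma adjusted p = 0.0293). Myot, myotilin, crosslinks actin and was listed at 0 in all 3 Onway libraries, against 4.6, 2.6 and 15.1 TPM in Control (log2 fold change -2.78 ± 0.52 (SE), limma adjusted p = 0.04). The other tested members did not pass: Ldb3, Neb, Actn2 and Csrp3 had limma adjusted p values from 0.0749 to 0.301. Ldb3, a PDZ protein of the Z-disc, had 0, 0.02 and 0.03 TPM in Onway, against 9.85, 2.3 and 22.0 TPM in Control. Neb, the ruler protein nebulin, had 0.07, 0.43 and 0.23 TPM in Onway, against 2.8, 1.12 and 6.23 TPM in Control. Actn2, the alpha-actinin of all striated fibres, had 0.09, 0 and 0.04 TPM in Onway, against 1.75, 1.33 and 10.16 TPM in Control. In each of these 3, Control 6 was the highest library by a wide margin. Csrp3, muscle LIM protein, had 1.12, 1.41 and 0.95 TPM in Onway, against 2.52, 1.8 and 6.35 TPM in Control, the smallest fold change of the tested members on the log2(TPM + 1) scale. Ttn, the giant spring titin, was listed at no more than 0.37 TPM in any library.

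Tpm2 and Acta1 passed the threshold in each of the 6 fits that left out 1 library. Tcap, Myoz1 and Myot did not without Onway 1, Onway 2, Onway 3 or Control 4 (limma adjusted p from 0.0584 to 0.149). Myot also did not pass with no filter (0.0673) or with TMM scaling (0.0502).

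The calcium-handling genes were led by the cytosolic buffer and the pump of fast fibres. The 8 members summed to 1.12, 1.55 and 1.12 TPM in Onway, against 221, 80.5 and 516 TPM in Control, and of the 5 tested, Pvalb, Atp2a1 and Casq1 fell. Pvalb, parvalbumin, which binds calcium in the cytosol of fast fibres and speeds relaxation, lies at chr15:78191114-78206400 and had 0.21, 0.22 and 0 TPM in Onway, against 159.6, 55.7 and 359 TPM in Control (log2 fold change -7.03 ± 0.65 (SE), limma adjusted p = 0.00387). Atp2a1, the SERCA1 pump that returns calcium to the reticulum, lies at chr7:126445858-126463108 and had 0.42, 0.42 and 0.64 TPM in Onway, against 42.7, 16.2 and 114 TPM in Control (log2 fold change -4.89 ± 0.66 (SE), limma adjusted p = 0.0166). Casq1, the main skeletal calsequestrin, had 0, 0.35 and 0 TPM in Onway, against 12.9, 5.42 and 30.3 TPM in Control (log2 fold change -3.67 ± 0.55 (SE), limma adjusted p = 0.0185). For all 3 the lowest Control library was well above the highest Onway library.

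The channel and triad members were much lower in level. Cacna1s, the voltage sensor of the transverse tubule, had 0.18, 0.37 and 0.35 TPM in Onway, against 1.95, 0.84 and 5.58 TPM in Control (limma adjusted p = 0.23). Trdn, triadin, which ties calsequestrin to the release channel, had 0.06, 0 and 0 TPM in Onway, against 3.07, 0.61 and 4.43 TPM in Control (limma adjusted p = 0.114). Neither passed the test. Ryr1, the release channel itself, had 0.12, 0.19 and 0.13 TPM in Onway, against 0.49, 0.38 and 0.95 TPM in Control. Casq2, the slow and cardiac calsequestrin, had 0.13, 0 and 0 TPM in Onway, against 0.26, 0.66 and 0.78 TPM in Control. Sln, sarcolipin, an inhibitor of the pump, was listed at 0 in Onway, against 0.36, 0.59 and 0.84 TPM in Control. Per length, Control levels thus ran from 191 ± 154 TPM on average for Pvalb down to 0.567 ± 0.272 TPM for Casq2, and Ryr1, Casq2 and Sln were too low to be tested.

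Pvalb passed the threshold in each of the 6 fits that left out 1 library. Atp2a1 and Casq1 did not without Onway 1, Onway 2, Onway 3 or Control 4 (limma adjusted p from 0.0699 to 0.0911).

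The remaining 6 members serve the fibre in other ways and summed to 0.22, 0.7 and 0.15 TPM in Onway, against 53.6, 14.3 and 85.6 TPM in Control. Mb, myoglobin, the oxygen-binding protein of the fibre at chr15:77015487-77050670, had 0, 0.22 and 0 TPM in Onway, against 42.6, 10.3 and 60.2 TPM in Control (log2 fold change -4.86 ± 0.62 (SE), limma adjusted p = 0.0119). It was the only called member of the 4 tested in this group, and it did not pass without Onway 1, Onway 2 or Onway 3 (limma adjusted p from 0.0558 to 0.0703). Smpx, a small protein of the muscle cytoskeleton, had 0, 0.21 and 0 TPM in Onway, against 4.68, 1.64 and 12.1 TPM in Control. Klhl41, a kelch protein of sarcomere assembly, had 0.15, 0.05 and 0.05 TPM in Onway, against 2.8, 0.89 and 6.01 TPM in Control. Xirp2, an actin-binding Xin protein, had 0, 0.04 and 0 TPM in Onway, against 1.54, 0.77 and 4.08 TPM in Control. These 3 had no overlap between the groups but did not pass the test, with limma adjusted p values from 0.0776 to 0.12. Mylk2, the kinase of the skeletal regulatory light chain, was at most 0.02 TPM in Onway and 2.2 TPM in Control. Cmya5, myospryn, was at most 0.16 TPM in Onway and 1.09 TPM in Control.

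Without both Control 4 and Onway 3, each of which had the highest haemoglobin share of its group, none of the 23 called members passed, with limma adjusted p from 0.0524 to 0.193, and 25 of the members tested had an unadjusted p under 0.05. That fit has 2 libraries per group, and 207 genes were still called lower and 97 higher over the whole table (2855 at an unadjusted p under 0.05). Without Control 5, the Control library with the lowest sum of the 41 genes, all 23 stayed called and 9 more members passed.

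The kind of transcript listed for these genes also differed between the groups. The 41 genes have 273 transcripts in the table, of which 18 are newly assembled. Transcripts annotated as protein-coding carried 39.9%, 49.4% and 36.7% of the members' TPM in Onway, against 95.8%, 94.1% and 96.3% in Control. The means were 42.0% ± 6.60 in Onway and 95.4% ± 1.16 in Control (SD, n = 3 each), a difference larger than the spread of either group, with ranges that did not overlap. In level, protein-coding transcripts summed to 15.2, 20.1 and 10.3 TPM in Onway, against 2189, 799 and 4896 TPM in Control. Retained-intron transcripts, which keep an intron and are not expected to encode the protein, summed to 12.4, 9.56 and 6.84 TPM in Onway, against 29.6, 23.1 and 66.2 TPM in Control. Newly assembled transcripts summed to 7.8, 7.35 and 8.98 TPM in Onway, against 39.9, 20.8 and 84.5 TPM in Control. The coding class thus differed between groups by far more than the other classes did. The share is made from the same values as the sums above and is given with no test.

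**Figure D4:**
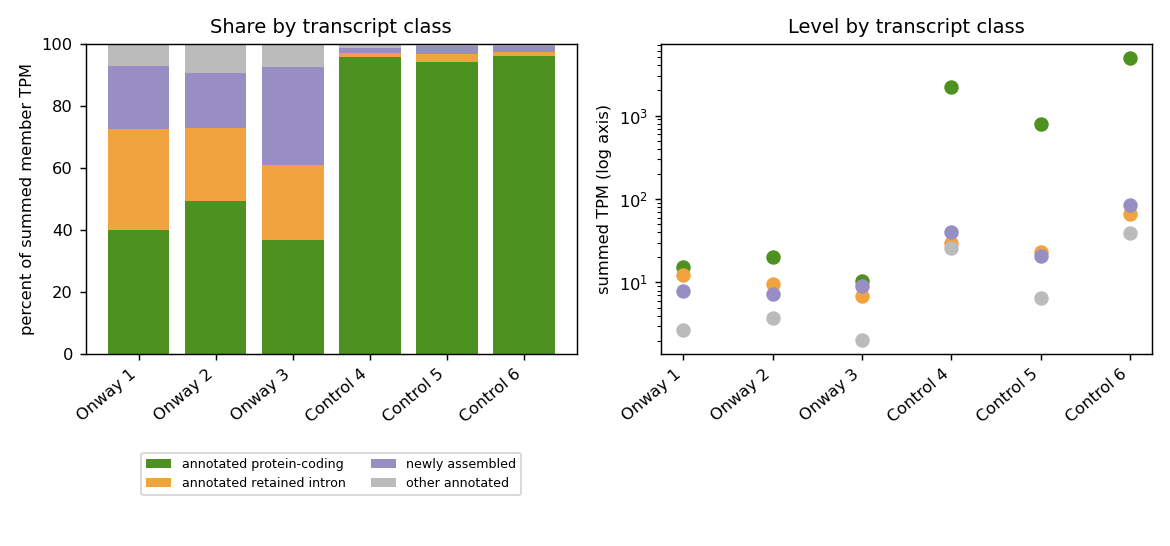
Left, percent of the members' summed TPM on each class of transcript in each library. Right, the same classes in TPM on a log axis. Protein-coding transcripts held 36.7% to 49.4% in Onway and 94.1% to 96.3% in Control.

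Mylpf, Tnni2 and Tnnt1, 3 genes picked after their values were seen, carried 67.9%, 60.0% and 73.5% of the members' TPM in Onway, against 26.2%, 26.8% and 27.5% in Control. For Mylpf the most abundant coding transcript had 0.91, 1.98 and 0.61 TPM in Onway, against 340.3, 113 and 787 TPM in Control. A newly assembled Mylpf transcript had 4.16, 4 and 5.5 TPM in Onway, against 4.94, 3.2 and 3.29 TPM in Control. The Mylpf transcripts that are not annotated as coding averaged 6.54 ± 1.18 TPM in Onway and 5.54 ± 1.22 TPM in Control (SD, n = 3 each), a difference within the spread of the libraries. Most of what is listed for Mylpf in Onway was therefore on transcripts that did not differ beyond that spread. For Tnni2 the leading coding transcript had 0.07, 0.88 and 0.41 TPM in Onway, against 199.6, 77.9 and 519 TPM in Control. A retained-intron transcript of Tnni2 had 2.09, 2.85 and 2.41 TPM in Onway, against 0.71, 1.83 and 2.19 TPM in Control. Its lowest Onway value lay within the Control range. For Tnnt1 the coding transcripts had 1.44, 1.52 and 1.25 TPM in Onway, against 14.2, 6.39 and 12.6 TPM in Control, and its other transcripts overlapped between the groups. The remaining 4 members with an Onway mean above 1 TPM, Csrp3, Mybpc2, Tpm2 and Tnnt3, had 82.5% to 100% of their Onway TPM on coding transcripts.

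With protein-coding transcripts only, the log2 fold change of Mylpf was -6.05, of Tnni2 -6.96 and of Tnnt1 -2.26. The call of Myh1, most of whose TPM is on new transcripts, was lost (limma adjusted p = 0.0628), and Myh7 fell under the filter. Ldb3, Myh2, Myh4 and Smpx were called in addition. The source of the newly assembled and retained-intron transcripts was not tested.

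Genes of the same biology outside the 41 were read from lists that were also drawn up with earlier results of these data known. Of 34 other sarcomere genes 17 were tested, and 6 were lower and 0 higher, against 2.99% lower and 0.233% higher of all tested genes. These shares also stand beside the counts of the other 2 pathway lists. The median log2 fold change was -1.58 beside 0.03 for all tested genes. As with the 41 members, some of the tested genes of this list and of the other 2 pathway lists below reached the filter only through Control, so these medians describe the tested genes alone. Fhl1, a LIM protein of the sarcomere, had 2.49, 1.31 and 1.6 TPM in Onway, against 28.6, 20.8 and 29.9 TPM in Control (log2 fold change -3.30 ± 0.23 (SE), limma adjusted p = 5.23e-04). Myom1, the M-band crosslinker myomesin, had 1.01, 0.89 and 0.73 TPM in Onway, against 13.1, 9.65 and 16.9 TPM in Control (log2 fold change -2.89 ± 0.23 (SE), limma adjusted p = 8.49e-04). Both passed in each of the 6 fits without 1 library. Tpm1, the alpha-tropomyosin that many cells also use, had 27.9, 28.7 and 28.9 TPM in Onway, against 323, 150.2 and 547 TPM in Control (log2 fold change -3.34 ± 0.44 (SE), limma adjusted p = 0.00967). Myoz2, the slow and cardiac calsarcin, had 0.08, 0 and 0 TPM in Onway, against 6.88, 2.65 and 10.4 TPM in Control (log2 fold change -2.75 ± 0.40 (SE), limma adjusted p = 0.0103). Tpm1 and Myoz2 did not pass without Onway 2 or Onway 3 (0.0601 to 0.0749). Cryab and Des fell as well, and neither passed without Onway 1, Onway 2, Onway 3 or Control 4 (0.0819 to 0.116). Tpm3, a tropomyosin of slow fibres that most other cells express too, had 573, 612 and 356 TPM in Onway, against 394, 514 and 483 TPM in Control, with overlapping groups (limma adjusted p = 0.893).

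Of 26 other genes of the triad and of excitation 15 were tested, and Hrc alone was lower, with 0 higher and a median log2 fold change of -0.33. Hrc, a calcium-binding protein of the reticulum, had 0, 0.02 and 0 TPM in Onway, against 1.49, 1.34 and 3.97 TPM in Control (log2 fold change -1.61 ± 0.33 (SE), limma adjusted p = 0.0485). It did not pass without Onway 1, Onway 2, Onway 3 or Control 4 (0.0705 to 0.157), and fell under the filter without Control 6. It also did not pass with no filter (0.0674) or with TMM scaling (0.0596). Jsrp1, a triad protein, had 0, 0.15 and 0.1 TPM in Onway, against 4.72, 1.18 and 10.8 TPM in Control. Cacng1, a subunit of the voltage sensor, had 0.05, 0.05 and 0 TPM in Onway, against 1.55, 0.72 and 5.77 TPM in Control. Mrln, which encodes the pump inhibitor myoregulin, was listed at 0 in Onway, against 0.98, 0.43 and 6.19 TPM in Control. These 3 did not pass (limma adjusted p from 0.119 to 0.34). Atp2a2, the SERCA2 pump that slow fibres share with most other cells, had 31.8, 43.0 and 31.7 TPM in Onway, against 38.6, 25.4 and 31.2 TPM in Control (limma adjusted p = 0.8), in contrast to the values of Atp2a1 above. The list holds such widely expressed genes, and no set test was made of it.

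Of 20 genes of muscle energy metabolism 18 were tested, and 7 were lower and 0 higher, with a median log2 fold change of -2.86. Car3, the carbonic anhydrase of slow fibres and fat cells, had 1.16, 1.55 and 2.01 TPM in Onway, against 28.6, 28.02 and 25.2 TPM in Control (log2 fold change -3.47 ± 0.19 (SE), limma adjusted p = 4.80e-04). Its Control values were nearly equal, unlike the order of Control 6, Control 4 and Control 5 seen in 36 of the 41 members. Cox8b, the muscle isoform of a cytochrome c oxidase subunit, was listed at 0 in Onway, against 40.8, 18.0 and 80.0 TPM in Control (log2 fold change -5.32 ± 0.49 (SE), limma adjusted p = 0.00236). Fabp3, the fatty acid carrier of heart and muscle, had 0, 0 and 0.19 TPM in Onway, against 10.8, 4.86 and 19.6 TPM in Control (log2 fold change -3.41 ± 0.43 (SE), limma adjusted p = 0.00657). Ckm, the muscle creatine kinase that buffers ATP, had 1.7, 0.8 and 0.91 TPM in Onway, against 139, 63.3 and 399 TPM in Control (log2 fold change -6.19 ± 0.66 (SE), limma adjusted p = 0.00703). Car3, Cox8b and Ckm passed in each of the 6 fits without 1 library, and Fabp3 did not without Onway 2 (0.0559). Pygm, Pgam2 and Cox7a1 fell as well, and none passed without Onway 1, Onway 2 or Onway 3, nor Pgam2 and Cox7a1 without Control 4 (0.0531 to 0.128). With no filter Cox7a1 did not pass either (0.0605).

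Markers of other muscle cells were read in the same libraries. Satellite cells and myogenic factors, markers of muscle stem cells and of differentiating myoblasts, summed to 0.05, 0.04 and 0.01 TPM in Onway, against 2.79, 1.45 and 2.32 TPM in Control, and none of the 9 reached the filter. Of these, Cdh15, M-cadherin, had the highest mean, with 0.03, 0.02 and 0.01 TPM in Onway, against 1.86, 1.24 and 0.97 TPM in Control. Myf6, the myogenic factor of mature fibres, came next, listed at 0 in Onway, against 0.72, 0.2 and 1.07 TPM in Control. Pax3, Myf5 and Mymk were listed at 0 in all 6 libraries, and Pax7, the defining factor of satellite cells, at no more than 0.02 TPM. The developmental myosins Myh3 and Myh8 did not exceed 0.19 TPM in any library. Of 11 heart genes, Nppa, Nppb and Myl7, which define heart muscle, were listed at 0 in all 6 libraries. With no overlap between the groups, 4 of the 11 were lower in Onway, as were 10.9% of all genes listed above 0 in any library. Among these 4 heart genes, Actc1, the cardiac alpha-actin, was listed at 0 in Onway, against 2.38, 0.45 and 3.41 TPM in Control. Myh6, the alpha heavy chain of heart muscle, was listed at 0 in Onway, against 0.6, 0.44 and 0.64 TPM in Control. The heart list was led by Myl4, an atrial light chain also made in erythroid cells, with 20.7, 48.1 and 69.7 TPM in Onway, against 17.2, 11.5 and 14.3 TPM in Control (limma adjusted p = 0.184). Mybpc3, the cardiac myosin-binding protein C, came next, with 1.47, 1.44 and 1.03 TPM in Onway, against 3.01, 3.66 and 3.43 TPM in Control (limma adjusted p = 0.0519). None of the 3 tested heart genes passed limma's adjusted threshold. All 3 had an unadjusted p under 0.05, as had 1897 of all 14192 tested genes, with Myl4 higher and Actc1 and Mybpc3 lower in Onway. The 11 heart genes summed to 23.4, 51.4 and 72.5 TPM in Onway, against 26.7, 18.5 and 24.2 TPM in Control. These sums were mostly Myl4, so they say little about the other heart genes. The 9 smooth muscle genes summed to 23.4, 21.4 and 13.6 TPM in Onway, against 43.3, 33.9 and 38.5 TPM in Control. Smtn led that list, with 13.1, 11.4 and 7.19 TPM in Onway, against 19.5, 16.6 and 18.1 TPM in Control. Mylk alone of 3 tested was lower, with 3.93, 3.06 and 2.03 TPM in Onway, against 19.0, 10.6 and 13.98 TPM in Control (limma adjusted p = 0.00802). It did not pass without Onway 2 (0.0548) or with Ensembl transcripts only (0.349). Myh11, the smooth muscle heavy chain, was at most 0.11 TPM in any library.

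Some marker lists of other cells of bone and marrow were also lower in the 3 Onway libraries. The 11 osteoblast and osteocyte genes, which mark bone-forming cells, summed to 19.0, 36.4 and 17.3 TPM in Onway, against 705, 1486 and 306 TPM in Control. Of the 10 tested, 8 were lower at a limma adjusted p under 0.05, against 2.99% of all tested genes. That share also stands beside the counts of the stroma and megakaryocyte lists below. Some tested genes of the osteoblast and stroma lists, such as Phex, Sp7 and Lum, averaged under 1 TPM in Onway. They could reach the filter only through Control, so these counts describe the tested genes alone. Runx2 and Col1a1 were tested and did not pass. Runx2, a transcription factor, had 10.45, 11.88 and 7.58 TPM in Onway, against 9.49, 7.67 and 11.3 TPM in Control (limma adjusted p = 0.944). Col1a1, a collagen gene, had 0.42, 2.48 and 0.75 TPM in Onway, against 95.8, 185.75 and 18.9 TPM in Control (limma adjusted p = 0.0516). Mepe was listed at 0 in all 3 Onway libraries. Bglap2, an osteocalcin, led the list, with 4.25, 8.23 and 3.48 TPM in Onway, against 246, 567 and 102 TPM in Control. Bglap, a second osteocalcin gene, came next, with 0.28, 7 and 1.59 TPM in Onway, against 127, 346 and 59.4 TPM in Control. These neighbouring copies are close in sequence, so the split between them is uncertain. The osteoblast sum was highest in Control 5 and lowest in Control 6, the reverse of the muscle sum. Single osteoblast genes did not all share that order. Bglap, Bglap2, Col1a1, Col1a2 and Mepe were highest in Control 5. Dmp1, Sp7 and Runx2 were highest in Control 6, and Ibsp, Alpl and Phex in Control 4. Fibroblast and stroma genes summed to 24.6, 32.4 and 40.5 TPM in Onway, against 406, 224 and 299.9 TPM in Control, with 7 of 7 tested lower. Cxcl12, a niche chemokine, had 17.4, 23.8 and 32.8 TPM in Onway, against 276, 117 and 192 TPM in Control. Igfbp5, a binding protein of insulin-like growth factors, had 3.69, 4.43 and 3.99 TPM in Onway, against 65.5, 35.8 and 55.6 TPM in Control. Both were lower in every Onway library than in any Control library.

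Megakaryocyte and platelet genes summed to 157, 117 and 95.5 TPM in Onway, against 2216, 2033 and 1970.2 TPM in Control, with 9 of 9 tested lower. Their 3 Control sums were close together, unlike those of the muscle genes. The remainders of the deposited means for this list, 1142 TPM in Onway and 955 TPM in Control, lay between the 2 groups. For the stroma list they were 81.8 TPM in Onway and 97.0 TPM in Control, also between the groups. For the osteoblast list the Control remainder of 13.6 TPM was below every Onway sum. The separation of the groups in these lists thus holds for the 6 libraries analysed only. Ppbp, a platelet chemokine, had 41.3, 22.5 and 15.3 TPM in Onway, against 953, 811 and 773 TPM in Control. Pf4, platelet factor 4, had 58.2, 54.4 and 46.0 TPM in Onway, against 799, 837 and 769 TPM in Control. All 9 passed in each fit without 1 library, while Lepr and Pdgfrb of the stroma list did not without Onway 2 (limma adjusted p of 0.0524 and 0.0592). In the osteoblast list, Bglap, Bglap2, Col1a2 and Sp7 each lost the call in 3 to 5 of the 6 fits without 1 library, and each of the 6 libraries ended at least 1 of these calls (0.0588 to 0.168). Bglap also did not pass with a pseudocount of 0.1 or 0.5 TPM or with Ensembl transcripts only (0.0529 to 0.0972), Sp7 with no filter (0.0612), and Pdgfrb with Ensembl transcripts only (0.0507). Of 13 genes of marrow haematopoietic cells, 0 passed limma's adjusted threshold. An unadjusted p under 0.05 was found for 4 of them, against 1897 of all 14192 tested genes. Of these 4, Cd79a, Cd79b and Ptprc were higher in Onway and Elane was lower. Cd79a, a B cell gene, had 53.0, 178 and 205 TPM in Onway, against 56.4, 45.3 and 33.5 TPM in Control. S100a9 and S100a8, neutrophil calprotectin genes, led the list. S100a9 had 104352, 110652 and 58279.8 TPM in Onway, against 52186, 118457 and 96643 TPM in Control. S100a8 had 41296, 45619 and 24786 TPM in Onway, against 24063, 55922 and 43829 TPM in Control. The sums of the 13 genes, 174858, 180356 and 100451 TPM in Onway, overlapped those of 92924, 200481 and 164888 TPM in Control. These sums were mostly S100a9 and S100a8, so they say little about the B cell genes. None of the 13 was near 0 in any library. The part of these other cell types in the muscle result was not tested.

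**Figure D5:**
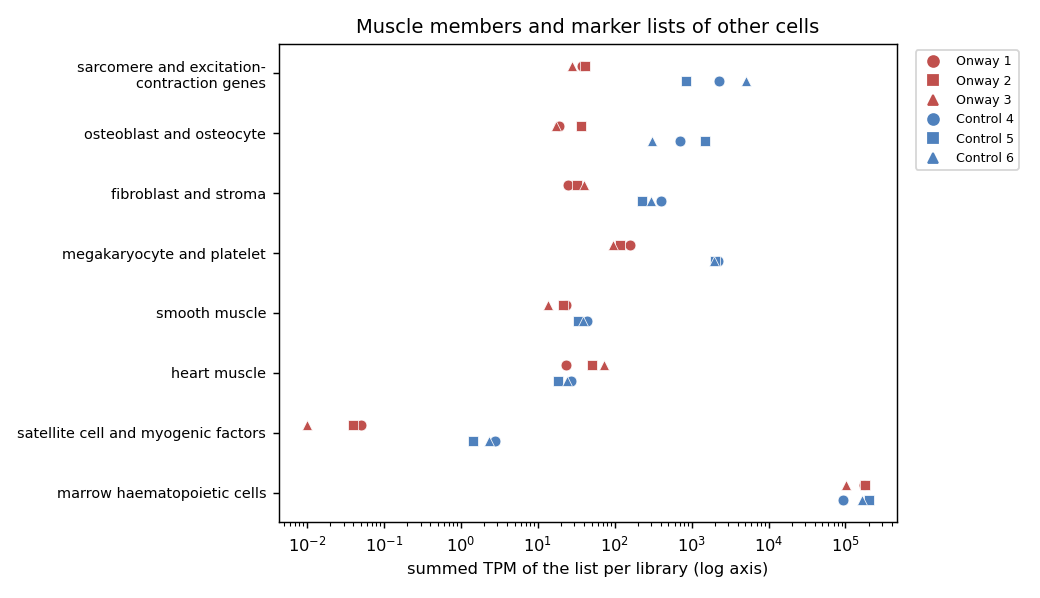
Summed TPM per library of the 41 muscle genes and of the marker lists of other cells, on a log axis, with Onway in red and Control in blue. The muscle, osteoblast, stroma and megakaryocyte sums are lower in every Onway library than in any Control library, while the marrow haematopoietic sums overlap.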

How the data were processed

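Total RNA of bone marrow was purified on columns and turned into SMARTer mRNA-seq libraries, per the labels' protocols. The submitters' processing notes name GRCm38 and mm10, and no source used here gives aligner, quantifier or strand. For each library the authors deposited TPM for 158850 transcripts, summing to 1e+06, so no depth, counting interval or detection limit is given. The Onway columns carry another prefix than the titles and were matched by number. TPM was summed per gene (56496). Genes averaging 1 TPM or more across the 6 libraries were tested as log2(TPM + 1) with limma 3.58.1 in R 4.3.3 (trend and robust moderation, 3 against 3, no covariate, two-sided), with Benjamini-Hochberg adjustment over all 14192 genes and a threshold of 0.05, a script tested on simulated data. SE is the moderated value. Transcript classes and gene positions are from GENCODE M21, which held 97.1% of the Ensembl transcripts. The 41 genes and all lists were chosen with earlier results of these data known. All members are accounted for, with values per library for called members and isoform pairs, the 4 smallest p of each pathway list and the 2 most abundant genes of each cell type list. Other named genes were chosen after their values were seen. Alternatives changed the pseudocount, filter, scaling, transcripts, moderation and libraries.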

Additional observations from a re-analysis of the deposited data

How the results depend on the processing

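Leaving out 1 library at a time gave 246 to 456 genes lower, 16 to 87 genes higher and 8 to 32 members lower, and 7 of the 23 called members passed in all 6 of these fits. Without both Control 4 and Onway 3 there were 207 genes lower, 97 higher and 0 members lower, and the median log2 fold change of all tested genes shifted to 0.14. TMM scaling gave 58 genes higher and protein-coding transcripts alone, an alternative chosen after seeing the data, gave 59. Under the other settings 19 to 27 members were lower. No tested member's log2 fold change turned its sign under any setting. Rescaling without haemoglobin genes put the mean Onway sum at 25.3 TPM for fast and 1.57 TPM for calcium-handling members. With Ensembl transcripts alone, the mean fast share of Mylpf over Myl2 turned its direction, with 86.6% in Onway and 88.4% in Control, where all transcripts gave 93.8% in Onway and 88.6% in Control, all within the spread of the libraries. That of Mybpc2 over Mybpc1 was 76.1% in Control. With protein-coding transcripts alone it was 84.3% for Tnni2 over Tnni1, 47.6% for Tnnt3 over Tnnt1 and 80.9% for all fast over slow members in Onway, and 93.4% for Myh4 over Myh7 and 79.8% for Mybpc2 over Mybpc1 in Control. In Onway these coding pairs summed to only 0.84, 1.23 and 0.67 TPM for Tnni2 and Tnni1. They summed to 3, 4.11 and 1.73 TPM for Tnnt3 and Tnnt1, so both shares rest on low values. The cause of these shifts was not tested. Among the values of single genes under the alternatives, 430 kept their side of the threshold, 91 fell short of it and 23 passed it anew. No paired analysis was possible because the replicate numbers of Onway (1 to 3) and Control (4 to 6) are not shared. TPM keeps no depth, so levels near 0 cannot be told from undetected ones.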
